A study of Arabidopsis thaliana with 115 samples.

Results

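The genes that changed when WRKY54 (AT2G40750), a transcription factor (TF) of Arabidopsis thaliana, was brought into the nucleus of root cells are described here. The comparison was chosen by its labels. The 3 libraries labelled WRKY54 in batch 6 were set against the 3 empty vector (EV) libraries of that batch, which makes 6 of the 21 libraries of batch 6, 1 of the 6 batches of a series on 33 TFs, and all 22883 of 33016 genes past a filter on low counts were tested. In TARGET, the assay used, root protoplasts (cells freed of their walls) of 10-day-old Col-0 seedlings are transfected with a plasmid and sorted by the fluorescent protein that the plasmid also encodes. WRKY54 cells received a plasmid for WRKY54 fused to the hormone-binding part of the glucocorticoid receptor (GR), and EV cells received one for GR alone. Cells of both groups were otherwise treated alike. They were supplied with 60 mM total N (KNO3 and NH4NO3 at 20 mM each) for 2 h, 35 µM cycloheximide (CHX) was added 20 min ahead of 10 µM dexamethasone (DEX), and sorting took place 3 h after DEX. DEX lets the GR fusion enter the nucleus, and CHX stops protein synthesis, so that genes that need a newly made protein to respond are held back.

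What limits these cells as a model follows from the assay. WRKY54 was made from a plasmid in cells already taken out of the root, its native gene was also present, and the EV cells carried all treatments, so N, CHX and DEX themselves were not compared. The 3 replicates of a group are wells of a single assay, and wells are shared by cells of 2 plasmid types with different fluorescent proteins. P-values therefore measure the spread between wells and not between separate assays.

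WRKY proteins bind DNA through a domain named after its conserved residues, and the short element they recognise is the W-box. WRKY54 belongs to group III of the family, as does its close homologue WRKY70. In leaves both are known for their parts in salicylic acid signalling, in defence, in senescence and in responses to osmotic stress, and together with WRKY46 they take part in brassinosteroid-regulated growth.

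The W-box was read as TTGACC or TTGACT on either strand in the 300 bases from 250 before to 50 after the annotated start of each gene. The following windows of 30 bases come from promoters of induced genes that the results turn on, read 5′ to 3′ along the gene's own strand from the TAIR10.1 genome sequence of RefSeq, with the W-box in capitals (GGTCAA and AGTCAA are its reverse complements).

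AT3G51330: cgaatgattgatTTGACTaggaaattattt
AT3G51350: gcatgattagaaGGTCAActgtaagagaaa
AT5G45470: atgactcattgaTTGACTaaaacaaaagaa
AT3G17150: ctttttacatctAGTCAAacacattcaact
RLP38: gaagactttccaAGTCAAgctccttacata
EDS1: tctgaaaacccaAGTCAAgctacaaaaact
FRK1, nearer match: atcaacatcttaTTGACCaaatgttttttt
FRK1, farther match: gaagatggttggTTGACTatcaacatctta

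Distances are given to the first base of each W-box as printed, the one farthest from the start. In FRK1 these bases lay 29 and 47 bases before the start (chr2:8329956-8329985 and chr2:8329974-8330003, minus strand). The match of AT3G51330 lay 176 bases before the start (chr3:19056606-19056635, minus strand), that of AT3G51350 at 241 (chr3:19063762-19063791, minus strand) and that of AT5G45470 at 140 (chr5:18425165-18425194, minus strand). AT3G17150 held 3 matches before its start, of which the one shown lay at 172 (chr3:5847074-5847103, plus strand) and the others at 52 and 64. RLP38 had its match at 67 (chr3:8229669-8229698, minus strand) and EDS1 at 97 (chr3:17758227-17758256, minus strand). A match is a description of the letters and not a shown binding site. Other strongly induced genes, among them MEK1, AT1G08050, WRKY50 and WRKY58, had 0 matches in the same window.

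Library totals were 5049515, 6335334 and 6981039 counts for WRKY54, against 4080050, 4771186 and 5058964 for EV. The 10 most counted genes took 20.3%, 37.0% and 32.1% of the counts in the WRKY54 libraries, against 24.4%, 20.7% and 26.0% in the EV libraries. Most of that share belonged to AT3G06365, which held 16.1% of all batch 6 counts and was not called. Replicate correlations of log2 CPM (counts scaled to a common normalised library size) were 0.96 to 0.98 for WRKY54 and 0.98 for all pairs of EV. Of the root and shoot marker genes listed, only CASP1, a gene of the endodermal barrier, was called, at 1.42, 2.04 and 2.83 CPM in WRKY54 libraries against 7.28, 5.78 and 5.50 CPM in EV libraries, and its call was lost without WRKY54 replicate 1, WRKY54 replicate 2 or EV replicate 1 (log2 fold changes of -1.50 to -1.31). The summed level of the 5 stele markers was 98.6 to 105 CPM in WRKY54 libraries and 106 to 125 CPM in EV libraries. That of the 2 root cap markers was 13.2 to 14.6 CPM against 7.39 to 8.41 CPM, with neither gene called. Of the 7 shoot mesophyll markers, which root cells should lack, 4 did not pass the filter, and the 3 tested summed to 0.19 to 0.79 CPM against 0.93 to 1.14 CPM. A shift in the mix of cell types and a shift within cells cannot be told apart in bulk libraries, and the part of such a shift in any result was not tested.

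The transfected gene itself was measured first. WRKY54 (chromosome 2, 17000419 to 17002528, minus strand, TAIR10) stood at 3004, 2905 and 2558 CPM in WRKY54 libraries, against 3.64, 5.03 and 3.03 CPM in EV libraries. These are transcripts of the plasmid and of the native gene together, and all 6 libraries matched their labels (log2 fold change 9.49 ± 0.31 SE, edgeR adjusted p = 7.60e-41). WRKY54 is left out of all that follows.

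Of the 22883 genes tested, 2457 (10.7%) differed between WRKY54 and EV at an adjusted p below 0.05 in edgeR's quasi-likelihood test, and this is what "called" means here. Called genes were higher in WRKY54 in 1242 cases (5.43%), the transfected gene among them, and lower in 1215 (5.31%), and the median log2 fold change of all genes was -0.02. Genes that respond strongly to CHX alone, as listed by the study, were then set aside. This left 1132 induced targets (4.95% of genes tested) and 994 repressed targets (4.34%). The 3 WRKY54 libraries all lay above the 3 EV libraries for 1041 of the 1132 induced targets and for 2535 (11.1%) of all genes. The WRKY54 libraries all lay below for 922 of the 994 repressed targets and for 3092 (13.5%) of all genes. Targets were called from these same libraries, so their separation is no separate support. Induction was the larger in size. The induced targets had a median log2 fold change of 0.80, with 419 (37.0%) changed by at least 2-fold and 149 (13.2%) by at least 4-fold, while the repressed targets had a median of -0.63, with 263 (26.5%) and 85 (8.55%) past the same limits. Without WRKY54 replicate 3 the counts fell to 749 induced and 508 repressed targets, and without EV replicate 2 the repressed targets fell to 596.

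**Figure D1:**
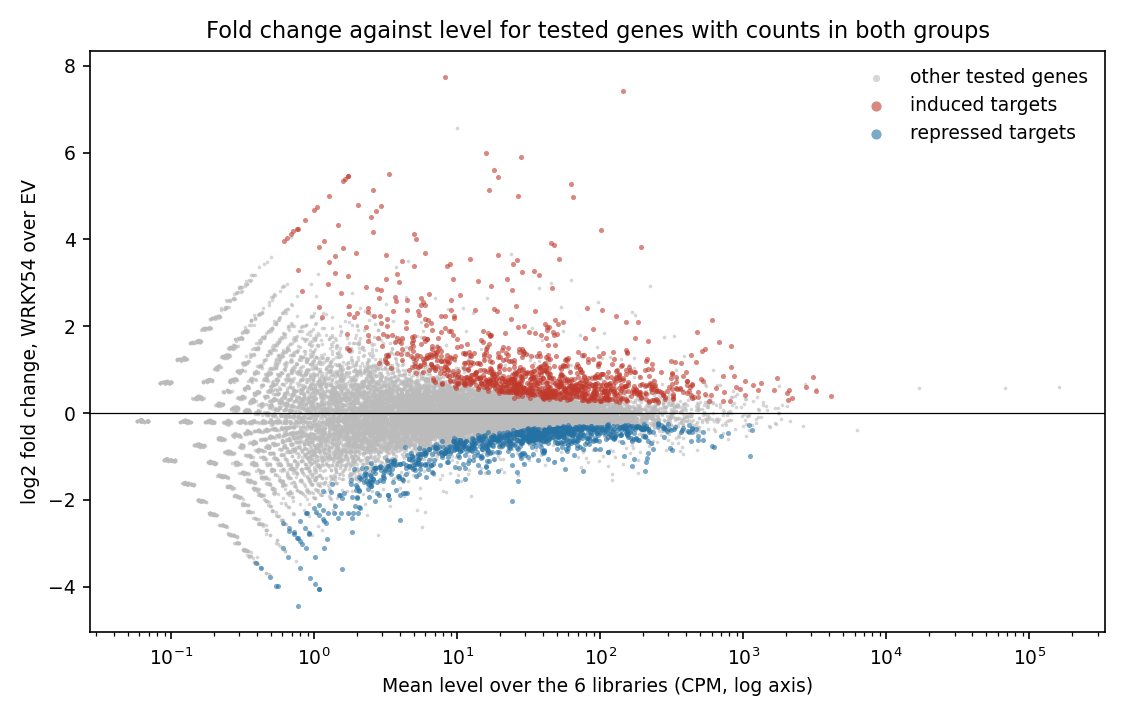
Log2 fold change of WRKY54 over EV (vertical axis) against the mean level over the 6 libraries in CPM (horizontal log axis), 1 point for each tested gene with counts in both groups, WRKY54 itself left out; induced targets are red, repressed targets blue and all other genes grey. Induced targets reach a log2 fold change of 7.73 and are spread over the range of levels, whereas the largest repressed changes are at levels of a few CPM or less.

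Several induced targets were close to silent in EV cells. AT2G24160, which is annotated as a transcribed pseudogene, had 37.7, 24.5 and 23.0 CPM in WRKY54 libraries and no count in any EV library, so it was at least 142-fold higher against a floor of 3 counts over the EV group. Also without a count in EV were SVL2, a homologue of the cell wall gene SHV3 (at least 41.3-fold higher in WRKY54), the serine carboxypeptidase-like gene scpl14 (at least 36.7-fold), RIC10, an interactor of ROP GTPases (at least 28.6-fold), and QWRF7 (at least 28.0-fold). AT3G17150, a member of the invertase and pectin methylesterase inhibitor family, had 12.6, 15.1 and 21.4 CPM in WRKY54 libraries, against 0, 0 and 0.19 CPM in EV libraries. With 288 counts against 1, its ratio was 249.5 with a 95% counting interval of 44.4 to 9889.

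Genes with the lowest p-values had counts in every library of both groups. MEK1 (AT4G26070), a MAP kinase kinase, had 116, 114 and 134 CPM in WRKY54 libraries, against 2.73, 3.17 and 3.41 CPM in EV libraries (log2 fold change 5.28 ± 0.34, adjusted p = 3.87e-25). It overlaps ABI1, a phosphatase of abscisic acid signalling on the opposite strand, and the library kit does not mark strand, so reads of the 2 genes cannot be told apart where they overlap. ABI1 had 317, 300 and 261 CPM against 223, 196 and 196 CPM (0.52 ± 0.12). AT1G08050, a RING finger gene, had 260, 253 and 228 CPM against 57.3, 59.3 and 56.7 CPM (2.095 ± 0.12, adjusted p = 4.19e-29). AT5G45470, a putative transmembrane protein gene that also overlaps a gene on the opposite strand, had 93.4, 86.4 and 106 CPM against 7.503, 8.57 and 8.15 CPM (3.56 ± 0.21).

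A run of neighbouring aspartyl protease genes on chromosome 3 was induced as a block. AT3G51330, AT3G51340, AT3G51350 and AT3G51360 lie one after the other on the minus strand between 19053272 and 19066734, and this run was singled out after its values were seen. AT3G51330 had 340, 371 and 371 CPM in WRKY54 libraries, against 26.8, 23.3 and 26.4 CPM in EV libraries (log2 fold change 3.82 ± 0.21, adjusted p = 6.69e-30, the lowest of all targets). For AT3G51350 the levels were 285, 296 and 278 CPM against 1.82, 1.12 and 2.09 CPM (7.42 ± 0.45). AT3G51340 stood at 53.5, 49.8 and 51.2 CPM against 1.82, 2.42 and 0.57 CPM (5.001 ± 0.50), and AT3G51360 at 27.0, 27.9 and 38.4 CPM against 1.36, 0.19 and 0 CPM (5.99 ± 0.78). In all 4 genes every WRKY54 library was above every EV library. The genes on either side moved less or were not called: AT3G51320 had a log2 fold change of -0.25 (adjusted p = 0.75), AT3G51325 one of 2.17 on 32 counts against 6 (adjusted p = 0.15), and AT3G51370, a protein phosphatase gene, one of 0.83 (adjusted p = 2.41e-11). The 4 genes are relatives, and how reads that fit several places were counted is not given in the sources used here, so the split of reads among them is uncertain.

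**Figure D2:**
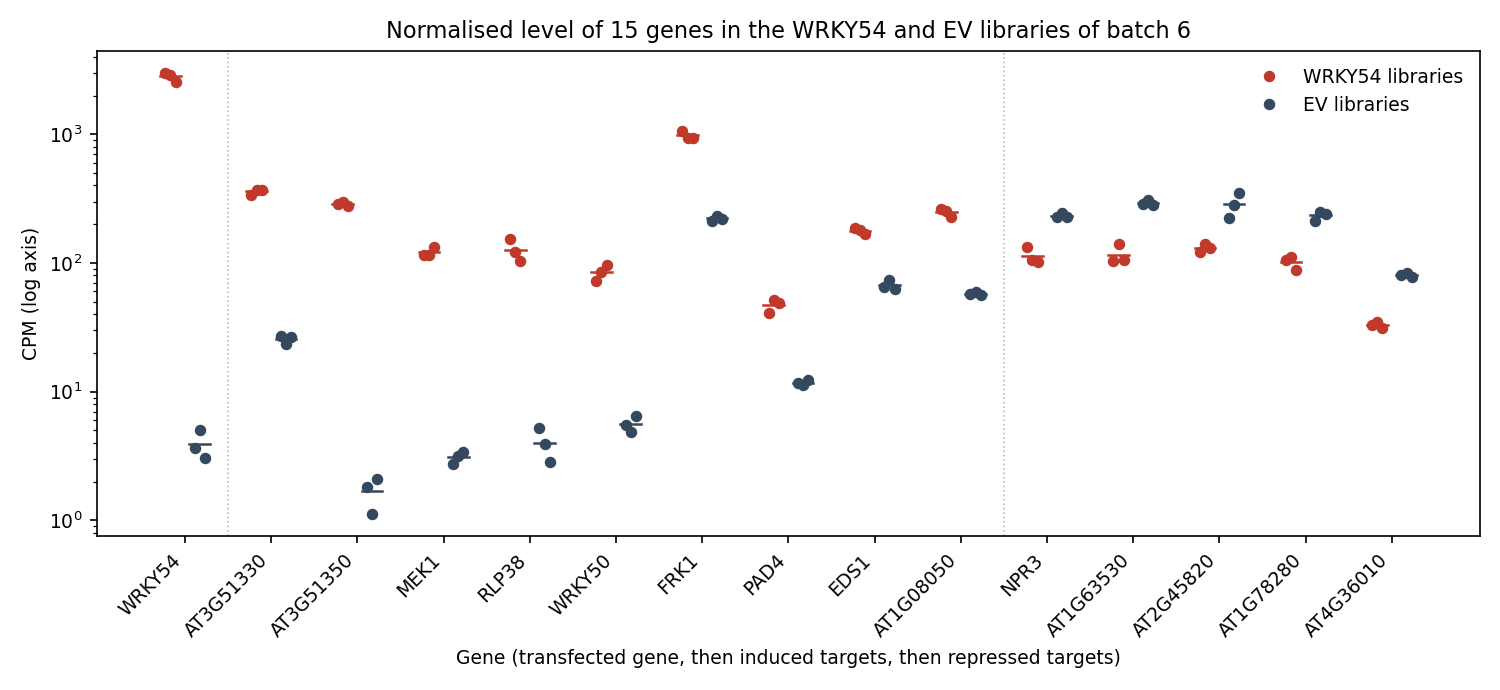
Normalised level in CPM (vertical log axis) of 15 genes in the 3 WRKY54 libraries (red) and the 3 EV libraries (dark blue) of batch 6, with 1 point per library and a line at the mean: WRKY54 itself, then 9 induced targets, then 5 repressed targets. The groups do not overlap in any of the 15 genes; AT3G51350 is at 278 to 296 CPM with WRKY54 and at 1.12 to 2.09 CPM with EV.

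Receptor-like proteins (RLPs), membrane proteins with leucine-rich repeats outside the cell and no kinase inside, were another group with many induced members. It was chosen after values were seen and is given as a description. Of 54 genes with an RLP symbol, 50 passed the filter, 15 were called higher and 2 lower in WRKY54, against 5.43% and 5.31% of all genes, with a median log2 fold change of 0.30. RLP38 had 152, 121 and 103 CPM in WRKY54 libraries, against 5.23, 3.91 and 2.84 CPM in EV libraries (log2 fold change 4.99 ± 0.36, adjusted p = 8.49e-22). RLP33 had 60.0, 58.7 and 46.3 CPM against 0, 0.93 and 1.71 CPM (5.89 ± 0.66), and its neighbour RLP32 had 14.4, 19.5 and 15.3 CPM against 0.68, 2.42 and 1.33 CPM (3.44 ± 0.65). RLP34 (1.92 ± 0.17), RLP46 (2.92 ± 0.31) and RLP43 (2.24 ± 0.39) were among the others called higher. RLP32, RLP34 and RLP46 overlap genes on the opposite strand. The 2 called lower were RLP52, which is CHX-responsive and so no repressed target, at 31.8, 34.4 and 31.7 CPM against 46.6, 54.6 and 48.7 CPM (-0.62 ± 0.15), and RLP47, which had no count in WRKY54 libraries and 8 counts over the EV libraries. The call of RLP47 was lost without any 1 of 5 libraries (all but EV replicate 2) and no fold is given for it, since its level was near the floor in both groups, and that of RLP42 (1.18, with overlapping groups) without EV replicate 1, EV replicate 2 or WRKY54 replicate 2 (0.94 to 1.01). Many RLPs lie beside close relatives, so the division of reads among them is uncertain too.

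Other WRKY genes were more often called higher than lower. Of the 64 tested genes with a WRKY symbol other than WRKY54, again a group chosen after values were seen, 19 were called higher and 3 lower, against 5.43% and 5.31% of all genes, with a median log2 fold change of 0.21. WRKY63, which the annotation used names ABO3, is not among the 64. WRKY58, a group I factor, had 33.0, 31.6 and 42.2 CPM in WRKY54 libraries, against 0.45, 0.75 and 0.95 CPM in EV libraries (log2 fold change 5.60 ± 0.80). WRKY50, which acts in salicylic acid and jasmonate responses, had 72.3, 85.7 and 97.2 CPM against 5.46, 4.84 and 6.45 CPM (3.93 ± 0.28, adjusted p = 2.59e-22). WRKY17, a repressor of basal defence, had a log2 fold change of 0.85 ± 0.12 and WRKY72, which is CHX-responsive, one of 1.00 ± 0.14. For 8 of the 19 (WRKY9, WRKY11, WRKY14, WRKY15, WRKY20, WRKY27, WRKY31 and WRKY61) the call was lost when 1 library was left out, with log2 fold changes of 0.23 to 1.39, and each of the 6 libraries decided at least 1 of them. All 3 WRKY genes called lower (WRKY45, WRKY46 and WRKY66) had log2 fold changes of -0.55 to -1.25. Against the mean of the other 5 TFs of batch 6, a contrast described below, WRKY46 was also lower (-1.36 ± 0.10). WRKY45 (-0.19) and WRKY66 (0.10) were not called in that contrast, and WRKY66 averaged 31.5 CPM over the other 5 TFs, against 33.4 CPM with WRKY54 and 49.96 CPM with EV.

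Within the fixed lists of group IIa and group III factors the direction was mixed. Among the 3 group IIa factors, which repress or prime defence together, WRKY18 had 472, 485 and 572 CPM in WRKY54 libraries against 141, 149 and 154 CPM in EV libraries (1.78 ± 0.11, adjusted p = 5.003e-27), and WRKY60 had 7.11, 7.99 and 7.72 CPM against 0.45, 0.56 and 0.95 CPM (3.501 ± 0.62). WRKY40, the remaining one, was not called (-0.05). Of the 12 other group III factors 2 were called higher (WRKY63, 0.97 ± 0.22, and WRKY67, 1.31 ± 0.30) and 2 lower (WRKY46 and WRKY66), against 5.43% and 5.31% of all genes, with a median of 0.05. WRKY46 had 30.0, 42.0 and 58.3 CPM against 103, 99.7 and 109 CPM (-1.25 ± 0.13). WRKY66 had 33.2, 34.2 and 32.8 CPM against 50.7, 53.5 and 45.7 CPM (-0.58), and its call was lost without EV replicate 2 (-0.53). WRKY70, the closest relative of WRKY54, was not called, at 13.5, 11.3 and 11.7 CPM against 13.4, 14.0 and 16.1 CPM (-0.26 ± 0.20, adjusted p = 0.49). WRKY18, WRKY46, WRKY67 and WRKY70 are CHX-responsive, and such genes are not counted among the targets even where they were called.

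Genes of salicylic acid (SA) synthesis and signalling rose in 8 of 23 tested cases and fell in 1, against 5.43% and 5.31% of all genes, while the median of the list was 0.04. EDS1 and PAD4 are partners that promote SA accumulation in defence. PAD4 had 41.0, 51.3 and 48.7 CPM in WRKY54 libraries, against 11.6, 11.2 and 12.3 CPM in EV libraries (log2 fold change 2.005 ± 0.15, adjusted p = 1.95e-21). EDS1 had 187, 180 and 167 CPM against 65.3, 74.2 and 62.2 CPM (1.403 ± 0.14, adjusted p = 4.46e-14). On the synthesis side, the transporter gene EDS5 had 146, 144 and 146 CPM against 59.3, 58.9 and 61.6 CPM (1.28 ± 0.11). ICS1, which encodes the main synthesis enzyme of the pathway, had 6.40, 9.11 and 11.8 CPM against 1.82, 2.61 and 2.84 CPM (1.90 ± 0.51), and its call was lost without WRKY54 replicate 3 (1.65). Both EDS5 and ICS1 are CHX-responsive, and EDS5 overlaps a gene on the opposite strand, as does NPR1.

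The receptors of SA were split. NPR1, the coactivator, had 134, 130 and 141 CPM in WRKY54 libraries against 80.9, 86.6 and 88.5 CPM in EV libraries (log2 fold change 0.66 ± 0.11), and NPR4 had 66.1, 59.1 and 52.0 CPM against 38.9, 33.0 and 29.6 CPM (0.81 ± 0.17). NPR3, which like NPR4 acts as a corepressor, was the 1 member that fell, with 132, 106 and 102 CPM against 229, 244 and 226 CPM (-1.04 ± 0.10, adjusted p = 1.12e-14). NIMIN1, whose protein binds NPR1, had 17.8, 15.4 and 13.2 CPM against 1.36, 1.304 and 1.71 CPM (3.39 ± 0.56). NDR1 was also called (1.06 ± 0.32, adjusted p = 0.018), but not without EV replicate 2, EV replicate 3 or WRKY54 replicate 2 (0.96 to 0.98). The other 14 tested members were not called, and PR1, the usual marker of SA response, did not pass the filter.

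Pattern-triggered immunity, the response to microbial molecules, and indole defence had 7 of 22 members called higher and 5 lower, against 5.43% and 5.31% of all genes, with a median log2 fold change of 0.15. FRK1, a receptor-like kinase gene widely used as a marker of this response, had 1064, 938 and 935 CPM in WRKY54 libraries, against 212, 234 and 221 CPM in EV libraries (2.14 ± 0.14, adjusted p = 1.51e-22). It overlaps AT2G19180 on the opposite strand. MPK11, a MAP kinase gene, had 350, 382 and 442 CPM against 53.9, 48.4 and 52.9 CPM (2.92 ± 0.13, adjusted p = 6.47e-37). FLS2, the receptor of bacterial flagellin, had 232, 228 and 193 CPM against 95.3, 105 and 103 CPM (1.11 ± 0.26), and PROPEP2, a precursor of danger peptides, had 35.2, 38.5 and 52.8 CPM against 17.3, 14.7 and 14.98 CPM (1.43 ± 0.30). MPK11 and FLS2 are CHX-responsive, as are PEPR1, PEPR2 and MPK3 among the genes that follow, and FLS2, PEPR2 and MPK3 overlap genes on the opposite strand. Lower were the oxidase gene RBOHD (-0.45 ± 0.09), the danger peptide receptor PEPR2, at 7.11, 6.32 and 2.52 CPM against 17.96, 22.2 and 18.4 CPM (-1.91 ± 0.25), and PEPR1, MPK3 and NHL10. Calls were lost without WRKY54 replicate 3 alone for NHL10 (-0.47), without it or EV replicate 2 for MPK3 and PEPR1 (-0.37 to -0.26), without it or EV replicate 3 for PAD3 (0.33 to 0.40), and without any 1 of 5 libraries for CYP71A12 (all but WRKY54 replicate 1) and MPK6 (all but WRKY54 replicate 3), at 0.19 to 0.75.

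The repressed targets with the lowest p-values were well counted. AT1G63530, of unknown function, had 103, 140 and 106 CPM in WRKY54 libraries, against 289, 309 and 284 CPM in EV libraries (log2 fold change -1.34 ± 0.12, adjusted p = 4.19e-16), and its promoter window held 2 W-box matches. AT2G45820, a remorin gene, had 123, 139 and 131 CPM against 223, 285 and 347 CPM (-1.12 ± 0.11). AT1G78280 had 106, 111 and 88.2 CPM against 213, 248 and 242 CPM (-1.21 ± 0.12), and AT4G36010, a thaumatin-like pathogenesis-related gene, had 32.9, 34.6 and 31.5 CPM against 81.2, 83.3 and 78.1 CPM (-1.29 ± 0.13). AT2G45820 and AT1G78280 overlap genes on the opposite strand. NPR3, given above, completes the 5.

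Among repressed targets with a mean of at least 5 CPM in either group and libraries that did not overlap, the 10 with the largest changes were mostly at low levels. AT2G35290 had 1.60, 0.93 and 1.102 CPM in WRKY54 libraries, against 7.05, 5.03 and 8.15 CPM in EV libraries (log2 fold change -2.46 ± 0.49). AT1G72810, a pyridoxal phosphate-dependent enzyme gene that overlaps a gene on the opposite strand, was the 1 of the 10 above 10 CPM in EV, at 9.77, 10.6 and 8.503 CPM against 33.0, 39.3 and 43.6 CPM (-2.01 ± 0.28). The other 8 (AT1G64295, ABCG2, CTF18, ULI3, AT3G55230, AT3G14360, MES18 and AT4G28890) had log2 fold changes of -1.98 to -1.78 at 5.12 to 6.90 CPM on average in EV. Calls were lost without WRKY54 replicate 3 for ULI3 (-1.36) and AT3G55230 (-1.38), and for AT1G64295 without any of EV replicate 2, EV replicate 3, WRKY54 replicate 2 or WRKY54 replicate 3 (-1.98 to -1.48).

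Jasmonate genes were the list that fell most often: 12 of 25 tested members were called lower and 2 higher, against 5.31% and 5.43% of all genes, and the median log2 fold change was -0.39. The JAZ genes encode repressors that are themselves induced by jasmonate. JAZ5 had 74.8, 69.3 and 56.8 CPM in WRKY54 libraries, against 169, 185 and 174 CPM in EV libraries (log2 fold change -1.398 ± 0.10, adjusted p = 1.92e-23), and JAZ10 had 68.0, 66.7 and 71.3 CPM against 123, 128 and 122 CPM (-0.86 ± 0.10). JAZ1, JAZ2, JAZ3 and JAZ8 were also lower (-0.64 to -0.39). Of the synthesis genes, AOS had 103, 124 and 108 CPM against 226, 205 and 206 CPM (-0.93 ± 0.11), and AOC3, OPR3, LOX3 and LOX4 had log2 fold changes of -0.46 to -0.31. CYP94B3, which inactivates the hormone, was lower (-0.71 ± 0.10), while CYP94C1 in the same breakdown pathway (1.22 ± 0.21) and JAR1, which activates the hormone (0.36 ± 0.11), were higher. The calls of JAZ8, LOX3, LOX4 and OPR3 were lost without WRKY54 replicate 3, as were those of LOX3 without EV replicate 2 and of OPR3 without EV replicate 1 or WRKY54 replicate 2 (log2 fold changes of -0.55 to -0.27 in these omissions), and that of JAR1 without EV replicate 3, WRKY54 replicate 1 or WRKY54 replicate 2 (0.27 to 0.33).

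Of the 12 jasmonate genes that fell, 10 are CHX-responsive, so JAZ1 and JAZ3 alone count as repressed targets. CHX-responsive genes as a whole leaned the same way. Among the 1398 tested, 221 (15.8%) were called lower and 109 (7.80%) higher in WRKY54, with a median log2 fold change of -0.20, whereas the other 21484 genes had 994 (4.63%) called lower and 1132 (5.27%) higher, with a median of -0.02. The part of the response to CHX in the fall of the jasmonate genes was not tested.

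Ethylene genes had 6 of 21 members called lower and 2 higher, against 5.31% and 5.43% of all genes, with a median log2 fold change of -0.06, and 2 of the 6 (ACS6 and ACS8) are CHX-responsive. The 2 that rose were ACO4, an ethylene-forming oxidase gene, with 257, 272 and 337 CPM in WRKY54 libraries against 143, 144 and 141 CPM in EV libraries (1.02 ± 0.10), and the receptor ERS2, with 39.3, 27.5 and 31.5 CPM against 10.7, 14.7 and 13.3 CPM (1.34 ± 0.20). EBF2, whose product marks the ethylene TF EIN3 for breakdown, was lower at 65.4, 52.6 and 54.2 CPM against 80.9, 82.7 and 82.9 CPM (-0.52 ± 0.11). The receptors ETR1 and ETR2, the kinase CTR1 and the synthesis genes ACS6 and ACS8 were lower as well (-0.89 to -0.30), but each of these 5 calls was lost when 1 library was left out (-0.89 to -0.23): ACS6 without WRKY54 replicate 1, ETR1 and ACS8 without EV replicate 2 or WRKY54 replicate 3, and ETR2 and CTR1 without any of 4 libraries.

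**Figure D3:**
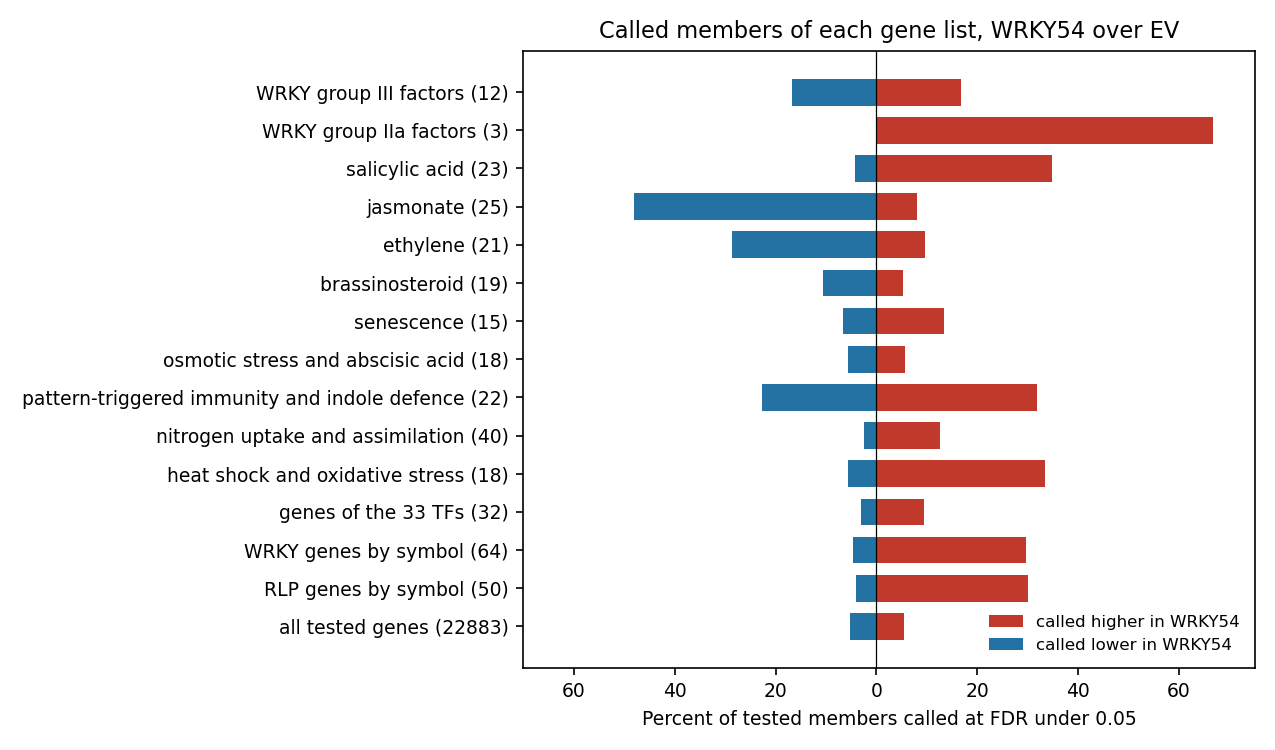
Percent of the tested members of each gene list called higher (red, to the right of 0) or lower (blue, to the left of 0) in WRKY54 than in EV at an adjusted p below 0.05, with the number of tested members in parentheses and all tested genes in the last row. Against 5.43% higher and 5.31% lower over all genes, jasmonate has the longest bar to the left (12 of 25) and group IIa WRKY factors the longest to the right (2 of 3).

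Called members of the list for N uptake and assimilation, the subject of the study, were mostly higher in WRKY54. Of the 40 tested genes 5 were called higher and 1 lower, against 5.43% and 5.31% of all genes, and the median log2 fold change was 0.06. The summed level of these 40 genes was 4461 to 4709 CPM in WRKY54 libraries, against 3761 to 3896 CPM in EV libraries. The ammonium transporter genes AMT1.1 and AMT2 rose, AMT1.1, which overlaps a gene on the opposite strand, with 1124, 1201 and 1092 CPM in WRKY54 libraries against 796, 770 and 748 CPM in EV libraries (0.56 ± 0.09) and AMT2 with 126, 132 and 121 CPM against 83.4, 81.8 and 77.4 CPM (0.64 ± 0.13). NRT3.1, the partner protein of high-affinity nitrate transporters, had 246, 267 and 256 CPM against 170, 159 and 162 CPM (0.65 ± 0.11), and the glutamine synthetase gene GLN1.1 had 186, 195 and 195 CPM against 134, 111 and 121 CPM (0.65 ± 0.10). GDH2, a glutamate dehydrogenase gene, was higher by 0.49 ± 0.12, but not called without WRKY54 replicate 3 (0.36). NIA2, the main nitrate reductase gene, was the 1 that fell, at 160, 157 and 114.8 CPM against 233, 200 and 208 CPM (-0.57 ± 0.12). The other 34 tested members were not called.

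Glutathione S-transferases (GSTs) made up most of the called members of the heat shock and oxidative stress list, which had 6 of 18 called higher and 1 lower, against 5.43% and 5.31% of all genes, with a median log2 fold change of 0.32. GSTU24 had 369, 402 and 530 CPM in WRKY54 libraries, against 203, 177 and 187 CPM in EV libraries (1.199 ± 0.13, adjusted p = 6.83e-13), and GSTF8 had 164, 196 and 160 CPM against 78.4, 78.8 and 104 CPM (0.99 ± 0.15). GSTF6 (0.54 ± 0.12) was higher as well. Calls of GSTU25 (0.87), the heat shock genes HSFB1 (0.28) and HSP17.6II (0.91), and ZAT10 (-0.30) were each lost without WRKY54 replicate 3 (0.67, 0.22, 0.80 and -0.23), and those of the last 3 also without EV replicate 2 (0.26, 0.83 and -0.29), of HSP17.6II without EV replicate 1 or WRKY54 replicate 2 (0.72 and 0.86) and of ZAT10 without WRKY54 replicate 1 (-0.28).

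Senescence, brassinosteroid and osmotic stress lists, which stand for other known roles of WRKY54 in leaves, had few called members. For senescence 2 of 15 were higher, the TFs NAP (0.45 ± 0.11) and WRKY6 (0.47 ± 0.09), and 1 was lower, WRKY45 (-0.55 ± 0.13), with a median of 0.03. Brassinosteroid genes had 1 of 19 higher (ROT3, 0.41) and 2 lower, the TF gene BZR1 (-0.54) and the CHX-responsive cell wall gene TCH4 (-0.90 ± 0.14), with a median of -0.02. The calls of ROT3 (0.32 to 0.41) and BZR1 (-0.48 to -0.43) were lost without EV replicate 3 or WRKY54 replicate 3, and that of ROT3 also without EV replicate 1 or EV replicate 2. For osmotic stress and abscisic acid 1 of 18 was higher, ABI1, which overlaps MEK1, and 1 was lower, the synthesis gene NCED3 (-0.65), whose groups overlapped and whose call was lost without EV replicate 1 or WRKY54 replicate 3 (-0.45 to -0.39); the median was -0.01. The share called in either direction was 20.0% for senescence, 15.8% for brassinosteroid and 11.1% for osmotic stress, against 10.7% of all genes. Among the genes of the other 32 TFs of the series, LBD37 (0.35), NAP and WRKY18 were called higher and CDF1 (-0.97 ± 0.21) lower, and the call of LBD37 was lost without any 1 library other than WRKY54 replicate 3 (0.31 to 0.36).

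W-box matches were more frequent before induced targets than before repressed ones. In the window of 300 bases, 559 of 1132 induced targets (49.4%) held at least 1 match, against 320 of 994 repressed targets (32.2%) and 7526 of the 22758 tested genes with a promoter sequence (33.1%). At least 2 matches were found in 18.1% of induced targets, against 8.25% of repressed targets and 7.98% of all. TTGACT was in 37.4% of induced targets, 21.03% of repressed targets and 22.3% of all, and TTGACC in 20.4%, 15.3% and 14.5%. The share was 56.6% among induced targets changed by at least 2-fold and 45.2% among the others. Elements read by other TF families were not more frequent to this degree: the G-box CACGTG was in 7.51% of induced targets, 9.15% of repressed targets and 8.31% of all, the GCC-box GCCGCC in 2.30%, 3.42% and 2.70%, and TGACG in 25.9%, 26.0% and 23.7%. TGACG and the W-box share the core TGAC and differ in the base after it, so both cannot match at the same position, though neighbouring matches can overlap at their ends. These shares are descriptions, with no test.

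**Figure D4:**
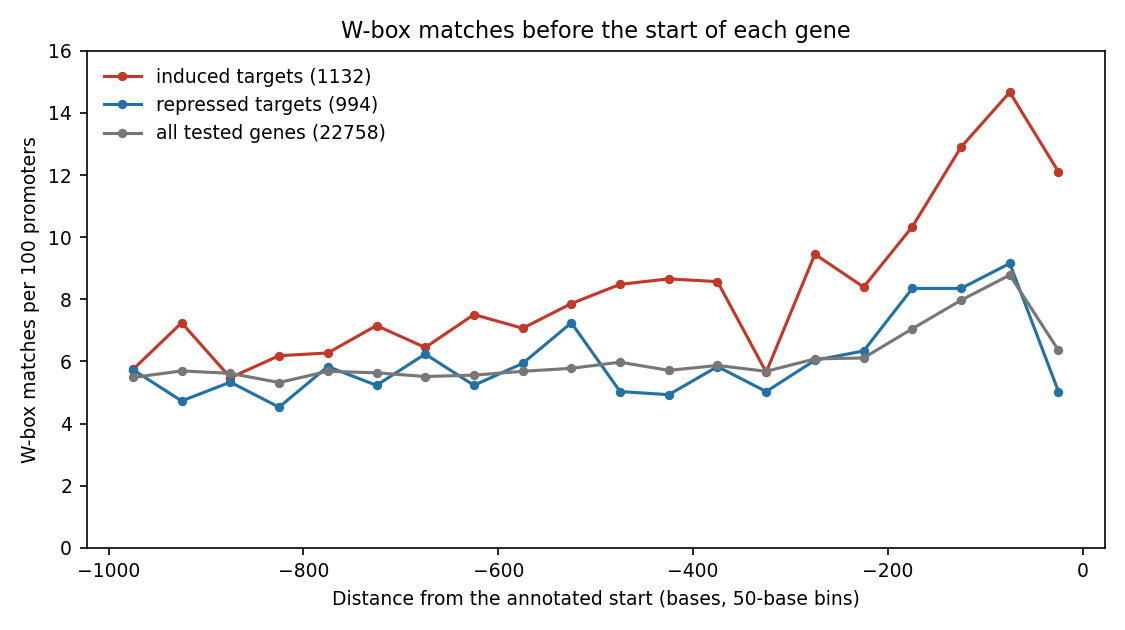
W-box matches per 100 promoters (vertical axis) in bins of 50 bases over the 1000 bases before the annotated start (horizontal axis, distance in bases) for induced targets (red, 1132 promoters), repressed targets (blue, 994) and all tested genes (grey, 22758). Induced targets peak at 14.7 matches per 100 promoters between 100 and 51 bases before the start, where repressed targets have 9.15 and all genes 8.78.

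Cells of the same batch transfected with other TFs were used to ask whether these changes went with WRKY54 or with any TF plasmid. WRKY54 was therefore also set against the mean of DIV1, ERF5, LBD37, RAV1 and VRN1 of batch 6 in the same edgeR fit, a contrast that uses the same 3 WRKY54 libraries but not the EV libraries. It called 2303 genes (10.1%) higher and 1711 (7.48%) lower in WRKY54. Of the 1132 induced targets 858 (75.8%) were also higher than the other 5 TFs and 9 were lower, and of the 419 changed by at least 2-fold 375 (89.5%) were higher. Of the 994 repressed targets 428 (43.1%) were also lower than the other 5 TFs and 10 were higher, and of the 263 changed by at least 2-fold 108 (41.1%) were lower. The median log2 difference from the other 5 TFs was 0.69 for induced targets and -0.34 for repressed ones. Without WRKY54 replicate 3 the 428 fell to 214. DIV1 replicate 3 stood apart from the other libraries of batch 6, with 49.5% of its counts in its 10 most counted genes, and without it the induced targets also higher than the other 5 TFs numbered 882 and the repressed targets also lower than the other 5 TFs 479.

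By lowest p, the induced targets that stood out most from the other 5 TFs were AT3G51330 (log2 difference 4.17 ± 0.12), AT1G08050 (2.27 ± 0.08), AT5G45470 (3.67 ± 0.12), MEK1 (5.49 ± 0.19) and AT3G51350 (7.83 ± 0.24). AT3G51330 ranged from 10.6 to 34.9 CPM over the 15 libraries of the other 5 TFs, all below the 340 to 371 CPM of WRKY54. On the lower side stood EMB1030, an alanyl-tRNA synthetase gene (-1.04 ± 0.10), NSP1, a nitrile specifier gene of glucosinolate breakdown (-1.51 ± 0.16), AT2G32190 (-0.84 ± 0.10), AT3G49720 (-0.90 ± 0.11) and LBD37, which is itself the transfected gene of 1 of the 5 TFs, reaches 4093 CPM there and is an induced target against EV. EMB1030 had 151, 142 and 126 CPM in WRKY54 libraries against 272, 306 and 276 CPM in EV libraries (-1.03 ± 0.12). NSP1 was called against EV (-0.72 ± 0.22), but not without EV replicate 1, WRKY54 replicate 2 or WRKY54 replicate 3 (-0.68 to -0.59). NPR3 differed from the other 5 TFs by -0.44 ± 0.08 and AT1G63530 by -0.32 ± 0.10, against -1.04 and -1.34 from EV. Of the repressed targets with the largest changes from EV, named above, AT1G64295 (-1.92), ABCG2 (-1.70) and CTF18 (-1.11) were also lower than the other 5 TFs. AT2G35290 (-0.67), AT1G72810 (0.08), ULI3 (-0.07), AT3G55230 (0.22), AT3G14360 (-0.15), MES18 (-0.31) and AT4G28890 (-0.11) were not called in this contrast. AT1G72810 averaged 12.8 CPM over the other 5 TFs, against 9.62 CPM with WRKY54 and 38.6 CPM with EV. The share of promoters with a W-box was 53.6% for induced targets also higher than the other 5 TFs and 36.1% for the rest.

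WRKY18, the other WRKY factor of the series, was assayed in batch 5 with EV libraries of its own, so its comparison shares no library with that of WRKY54. Against its own EV it had 809 genes called higher (3.54%) and 545 lower (2.38%). The 2 responses differed, by a test of the difference itself, at 1120 genes (4.89%) that lay higher for WRKY54 and 1260 (5.51%) that lay lower. Of the 1132 induced targets of WRKY54, 643 (56.8%) lay higher for WRKY54 than for WRKY18, and WRKY18 called 54 of them higher and 97 lower. Of the 994 repressed targets 516 (51.9%) lay lower, and WRKY18 called 21 of them lower and 138 higher. Targets were chosen by the WRKY54 response, which is itself part of this difference, so the choice alone raises the 56.8% and 51.9%. These shares are no separate support for a difference between the 2 TFs. Batch and TF cannot be told apart in this contrast beyond what each batch's EV removes.

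FRK1 is an example of opposite responses: its log2 fold change was 2.14 ± 0.14 with WRKY54 and -0.70 ± 0.15 with WRKY18, a difference of 2.83 ± 0.21 (adjusted p = 2.49e-20). NADK1, an NAD kinase gene, differed by 2.16 ± 0.13, with 2201, 2180 and 2230 CPM in WRKY54 libraries against 1204, 1292 and 1294 CPM in EV libraries. LYM2, a chitin-binding protein gene of plasmodesmata, differed by 2.03 ± 0.15, MYB84, a TF gene, by 2.07 ± 0.17 and WRKY6 by 1.67 ± 0.13. The 5 repressed targets with the lowest p for this difference were AT2G44500 (-1.97 ± 0.17), AT2G27080 (-1.58 ± 0.15), the peroxidase gene AT5G06730 (-2.06 ± 0.19), SHV3 (-1.80 ± 0.18) and AT1G04430 (-1.48 ± 0.16). All 10 were called in opposite directions by WRKY54 and WRKY18, an outcome favoured by choosing WRKY54 targets with the lowest p for this difference. NADK1, LYM2, SHV3 and AT2G27080, like FRK1, overlap genes on the opposite strand.

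Jasmonate genes were among those called in opposite directions. JAZ5 had a log2 fold change of -1.398 ± 0.10 with WRKY54 and 1.09 ± 0.10 with WRKY18 (difference -2.49 ± 0.14, adjusted p = 2.28e-30), AOS one of -0.93 and 0.96, and JAZ10 one of -0.86 and 0.99. CHX-responsive genes as a whole also leaned in opposite directions with the 2 TFs. WRKY18 called 254 of 1398 (18.2%) higher and 61 (4.36%) lower, at a median of 0.20. WRKY54 called 109 higher and 221 lower, at a median of -0.20. In the SA list EDS5 was higher with WRKY54 and lower with WRKY18 (1.28 and -1.29, difference 2.56 ± 0.18), whereas PAD4 (difference 1.69 ± 0.25) and EDS1 (1.39 ± 0.21) were called with WRKY54 and not with WRKY18, and the difference itself was called for both. Other SA genes differed the other way. The TF genes SARD1 (-1.80 ± 0.37) and CBP60G (-1.36 ± 0.18), which drive SA synthesis, the glutaredoxin gene GRX480 (-1.12 ± 0.17), SAG101, whose protein partners EDS1 (-0.92 ± 0.15), and DMR6, which encodes an SA hydroxylase (-0.72 ± 0.24), were called higher with WRKY18 and not called with WRKY54. NPR3 (-1.06 ± 0.15) was called lower with WRKY54 alone. SARD1, CBP60G and GRX480 are CHX-responsive.

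**Figure D5:**
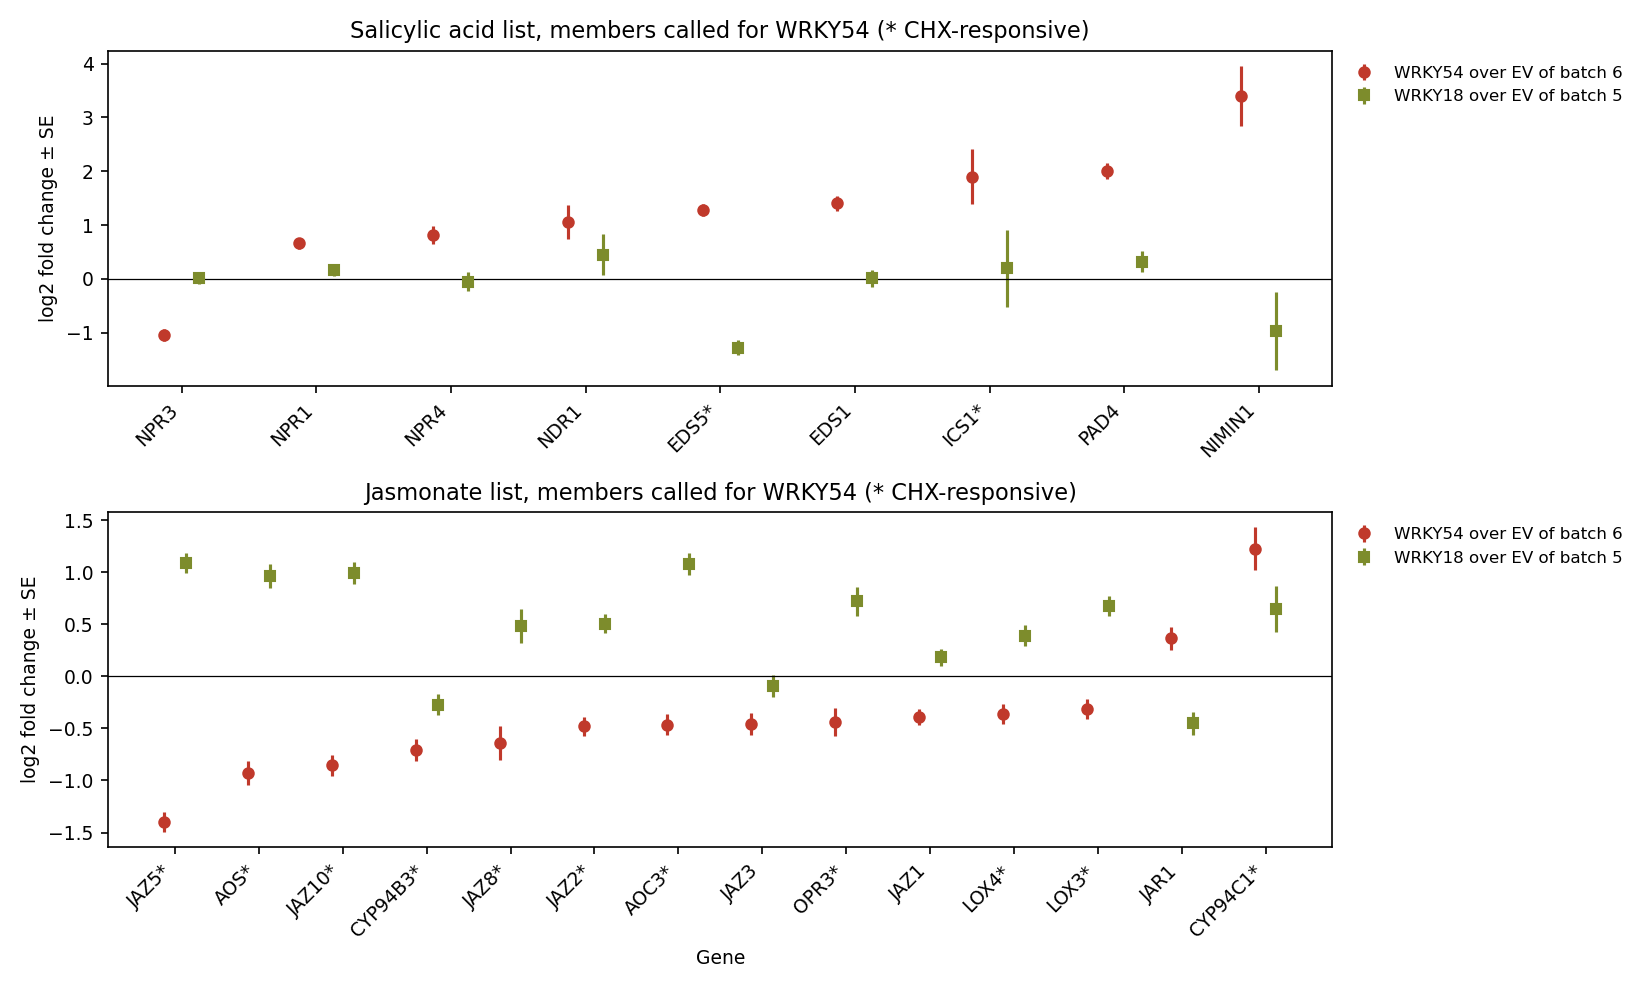
Log2 fold changes with their standard errors (vertical axes) of the SA genes (upper panel) and jasmonate genes (lower panel) called for WRKY54, for WRKY54 over EV of batch 6 (red circles) and WRKY18 over EV of batch 5 (green squares); an asterisk marks CHX-responsive genes. JAZ5, AOS and JAZ10 lie below 0 with WRKY54 and near 1 with WRKY18, and EDS5 lies at 1.28 and -1.29.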

How the data were processed

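RNA of FACS-sorted root protoplasts was sequenced from polyA-selected libraries made with a kit that does not mark strand. The authors aligned reads with TopHat2 to TAIR10 and deposited raw counts per gene for each library; how reads with several matches were counted is not given in the sources used here. The deposited counts were used as they stand. The tested set was 22883 of 33016 genes, those that reached 10 counts or more in 3 or more libraries over all batches. edgeR 4.0.16 (R 4.3.3, TMM normalisation, robust quasi-likelihood F-test) was fitted to the libraries of all 6 batches together, with construct and batch as terms, after the TF and batch model of the study, and p-values were adjusted over all tested genes (Benjamini-Hochberg, threshold 0.05). The CPM values printed are those edgeR computes from the TMM-scaled library size. Genes of the study's list of 1421 CHX-responsive genes, 1398 of them tested, were left out of the targets. Library totals ranged from 4080050 to 6981039 counts in the 6 libraries, and intervals and floors cover counting error only.

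Named genes were the 10 targets in each direction with the largest change and the 5 with the lowest p, among those with a mean of at least 5 CPM in either group and libraries that did not overlap, the called members of the gene lists, and the 5 in each direction with the lowest p against the other 5 TFs and against WRKY18. The genes compared, the lists and the rule were chosen with earlier results of these data known; the WRKY and RLP genes by symbol and the aspartyl protease run were chosen after their values were seen. Promoters were read from the TAIR10.1 assembly of RefSeq, whose nuclear chromosomes are those of TAIR10, for 22758 tested genes. Alternatives were DESeq2 1.42.0, its size factors in edgeR, no filter, a replicate block, fits on batch 6 or on the 6 libraries alone, library sizes without the TF genes or without the 10 most counted genes, and each library left out in turn. A fit without DIV1 replicate 3 was added after seeing the data. The scripts were tested on simulated data.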

Additional observations from a re-analysis of the deposited data

Results flagged for a closer look

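The responses to WRKY54 and WRKY18, each against the EV of its own batch, differed in edgeR's test of the difference at 1120 genes that lay higher for WRKY54 and 1260 that lay lower. The 5 induced targets with the lowest p for this difference had log2 differences of 2.16 (NADK1), 2.03 (LYM2), 2.83 (FRK1), 1.67 (WRKY6) and 2.07 (MYB84). The 5 repressed targets had log2 differences of -1.97 (AT2G44500), -1.58 (AT2G27080), -2.06 (AT5G06730), -1.80 (SHV3) and -1.48 (AT1G04430).

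Of the members of the gene lists, 20 were called in opposite directions by the 2 TFs with a called difference, 6 higher and 14 lower with WRKY54. The 6 were FRK1, EDS5, ABI1, WRKY6, PAD3 and JAR1, and the 14 included JAZ5, AOS, JAZ10, WRKY46, TCH4 and NIA2. CHX-responsive genes made up 12 of the 20. Opposite calls were not particular to the lists: WRKY18 called 97 of the 1132 induced targets lower and 138 of the 994 repressed targets higher. The share of all tested genes called in opposite directions was not counted, so the 20 are not set against a background. The batch, the CHX response of that batch and the TF cannot be told apart in this contrast.

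The WRKY54 transcript was also above its EV level in libraries of 2 other TFs of batch 6. It was at 20.9, 29.5 and 20.2 CPM in RAV1 libraries and at 6.61, 8.498 and 9.02 CPM in VRN1 libraries, against 3.64, 5.03 and 3.03 CPM in EV libraries, so that the lowest value of either TF lay above the highest of EV. In the WRKY54 libraries it was at 2558 to 3004 CPM. The transcript of RAV1 was not called in WRKY54 libraries against EV libraries, and neither was that of VRN1.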

How the results depend on the processing

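The count of induced targets (1132) stayed within 1.5 times under each alternative except 1: it ranged from 749 to 1238 when a library was left out, lowest without WRKY54 replicate 3, and was 1387 with DESeq2. Repressed targets (994) depended more on which libraries were used. They numbered 508 to 1167 with a library left out, 623 with the WRKY54 and EV libraries alone and 395 with batch 6 alone, where 15814 and 17663 genes were tested. Induced targets made up 53.2% of calls over all batches, 66.6% with the 6 libraries alone and 73.4% with batch 6 alone. With batch 6 alone, genes lower in WRKY54 than in the other 5 TFs of batch 6 fell to 1098 (against 1711) and repressed targets also lower than the other 5 TFs to 183 (against 428); the last numbered 214 to 519 with a library left out. The cause was not tested. Promoters with a W-box were 41.8% of induced targets, 28.7% of repressed targets and 28.8% of all genes in the 250 bases before the start. In the window of 300 bases they were 56.6% of induced and 28.1% of repressed targets changed by at least 2-fold. Leaving out DIV1 replicate 3, whose 10 most counted genes held 49.5% of its counts, was chosen after seeing the data and gave 1173 and 1084 targets.

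No pairing by replicate number was seen between WRKY54 and EV libraries. Deviations of same-numbered libraries correlated at -0.07, 0.02 and 0.07, and WRKY54 replicate 1 correlated best with EV replicate 2 (0.18). The check covers WRKY54 and EV alone and cannot show whether other libraries of the batch are paired by number. With the replicate number as a block, 1283 induced and 1167 repressed targets were called, against 1132 and 994 without it. None of the calls of 145 named genes changed. Over the alternatives other than that without DIV1 replicate 3 these genes gave 2026 comparisons, of which 1883 kept direction and call, 143 lost the call and 0 reversed.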

Other observations

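The genes of the other TFs transfected in the same batch were looked at in the WRKY54 and EV libraries, since wells are shared by cells of 2 plasmid types. VRN1 had 24.5, 22.7 and 24.6 CPM in WRKY54 libraries, against 17.3, 12.3 and 18.01 CPM in EV libraries. RAV1 had 156, 169 and 167 CPM against 137, 147 and 146 CPM. The groups did not overlap for VRN1 or RAV1, but neither was called in the edgeR fit. LBD37, with 163, 157 and 140 CPM against 121, 119 and 119 CPM, did not overlap either and was called (adjusted p = 0.037), though not without any 1 of 5 libraries (all but WRKY54 replicate 3, log2 fold changes of 0.31 to 0.36). DIV1 had 7.28, 6.51 and 4.88 CPM against 10.2, 7.08 and 7.39 CPM, which overlap and were not called. ERF5, an ethylene response factor, had 146, 220 and 231 CPM against 223, 199 and 191 CPM, which overlap and were not called.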
